A study of Mus musculus with 12 samples.

Results

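The interferon-stimulated effector genes are a listed set of 39 genes that cells switch on after contact with interferons, and they were examined in mouse peritoneal macrophages (PMs). The genes were chosen by name and function, with earlier results of these data known. Each was represented by its probe set with the highest mean over 12 arrays. Of the 39 genes, 36 had a probe set annotated to their symbol alone, out of 18193 genes measured in this way. *Isg15*, *Ifi44* and *Gbp5* had none and were skipped.

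Total RNA of PMs was hybridised to 12 Affymetrix mouse arrays, 2 for each of 6 groups. The cells were adherent cells of a peritoneal lavage and were transfected with antagomir-21, an antisense oligonucleotide against miR-21, with a scramble control oligonucleotide, or with lipofectamine, the transfection reagent, as the only agent named in the labels. All of them were exposed to exosomes from cultured sensory neurons, which overexpressed either miR-21 or a GFP reporter, so no group was free of exosomes or of transfection reagent. The labels give 2 numbered replicates per group and the methods describe biological triplicates that were collected independently and a culture of 48 h. Neither source says whether the replicates came from separate animals, so p-values measure the spread between these arrays, which may be technical in part.

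Interferons bind surface receptors whose JAK and TYK2 kinases phosphorylate STAT proteins. Type I interferons assemble a complex that holds STAT2 and IRF9 and binds the interferon-stimulated response element, whereas interferon gamma acts at the gamma-activated site. Macrophages are known to hold a low tonic output of these genes and to raise it after virus or nucleic acid sensing, and the products degrade or sequester viral RNA, restrict virus entry and release, and attack the vacuoles of intracellular pathogens.

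The oligonucleotide of the design is directed against the miRNA below, given with its seed (bases 2 to 8) in capitals, RefSeq, GRCm38.p6, chr11:86584120-86584141, minus strand.
mmu-miR-21a-5p: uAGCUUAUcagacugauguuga

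The promoter windows of RefSeq (GRCm38.p6, 250 bases before to 50 after each annotated start) were found for 28 of the 36 genes and searched on both strands. The response element core, GAAANNGAAA, lay in a window of 12 of the 28 genes (42.9%), against 3.99% of 27025 genes with such windows, and the gamma-activated site, TTCNNNGAA, in 9 of 28 (32.1%), against 9.55%. A match is a match of letters and not a measured binding site, and the arrays do not measure binding. The 150 bases upstream of the start are shown for 5 members, with matches in capitals (on either strand, overlapping matches merged): *Ifit1* (chr19:34640739-34640888, plus strand) and *Bst2* (chr8:71537473-71537622, minus strand), which had the smallest unadjusted p-values of the averaged comparisons of transfection and of exosomes, *Gbp3* (chr3:142559894-142560043, plus strand) and *Igtp* (chr11:58199406-58199555, plus strand) as GTPases that followed the other members across arrays, and *Irf1* (chr11:53769864-53770013, plus strand) as the transcription factor with a gamma-activated site and no response element core.
Ifit1: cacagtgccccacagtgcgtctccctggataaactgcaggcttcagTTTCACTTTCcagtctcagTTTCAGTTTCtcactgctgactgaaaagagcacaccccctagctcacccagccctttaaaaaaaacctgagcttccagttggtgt
Bst2: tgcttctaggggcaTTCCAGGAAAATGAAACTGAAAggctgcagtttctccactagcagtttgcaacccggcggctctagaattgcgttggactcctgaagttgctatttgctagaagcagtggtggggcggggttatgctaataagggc
Gbp3: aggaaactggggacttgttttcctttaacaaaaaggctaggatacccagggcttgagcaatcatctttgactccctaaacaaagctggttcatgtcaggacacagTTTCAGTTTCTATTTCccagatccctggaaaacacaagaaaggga
Igtp: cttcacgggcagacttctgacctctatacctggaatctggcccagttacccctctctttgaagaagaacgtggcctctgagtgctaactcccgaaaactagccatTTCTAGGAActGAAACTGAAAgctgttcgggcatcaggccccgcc
Irf1: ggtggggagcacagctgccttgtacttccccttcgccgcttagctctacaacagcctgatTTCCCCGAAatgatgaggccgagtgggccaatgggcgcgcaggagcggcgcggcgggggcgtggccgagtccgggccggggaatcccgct
*Ifit1* held a pair of response element cores, *Gbp3* a pair that overlapped by some bases, *Igtp* 1 core beside a gamma-activated site, and *Bst2* a gamma-activated site that ran into a pair of cores.

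Signals are log2 values per probe set. Probe sets hybridise with different strength, so the signals below are set against a background of genes rather than used to rank transcripts, and precision is limited by the number of arrays. As background served 39 olfactory receptor genes, which macrophages are thought to express little if at all: their mean signals had a median of 6.62, a 95th percentile of 8.27 and a highest value of 8.55. The cells carried macrophage markers, with 6 of 6 above the 95th percentile of the olfactory receptor genes (means 8.47 to 16.94) and 3 of 3 markers of large peritoneal macrophages, *Gata6*, *Icam2* and *Timd4*, also above it. The B cell markers *Cd79a*, *Cd79b* and *Ms4a1* were above it as well (8.58 to 12.41, 3 of 3 measured), as were 2 of 3 for plasmacytoid dendritic cells, with *Siglech* at 6.67, 1 of 4 for dendritic cells, 1 of 3 for neutrophils and 1 of 3 for mast cells, and none of 4 for T and NK cells, 3 for mesothelium or 3 for sensory neurons. Their part in the signals of the interferon-stimulated genes was not tested. Fewer cells of a type and less RNA per cell cannot be told apart in such bulk samples.

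The 36 members had a median signal of 8.84, against 7.91 for all genes. A total of 23 of them (63.9%) lay above the 95th percentile of the olfactory receptor genes, as did 42.1% of all genes, and 19 lay above the highest olfactory receptor gene. Just inside that limit stood *Ifit3* (8.35) and *Herc6* (8.39), and just outside it *Ifit2* (7.99) and *Irgm1* (7.99). The limit was set on means over 12 arrays, and single arrays did not all follow it. Against the olfactory 95th percentile of each array, the 8 members with the highest means were above it on all 12 arrays. *Oasl2* and *Sp100* were above it on 7, *Mx1* and *Herc6* on 4, and *Ifit3*, *Irf9* and *Parp9* on 3. The dimmer *Ifit2* was above it on 5. The 23 brighter members varied between arrays with a median SD of 0.76, from 0.30 for *Xaf1* to 1.65 for *Oasl2*, and the 13 dimmer members with a median SD of 1.81, from 1.25 to 2.13. All genes above and at or below the same limit had median SDs of 0.81 and 1.71, close to those of the members. The plot of signals by array shows this widening at the dim end.

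**Figure D1:**
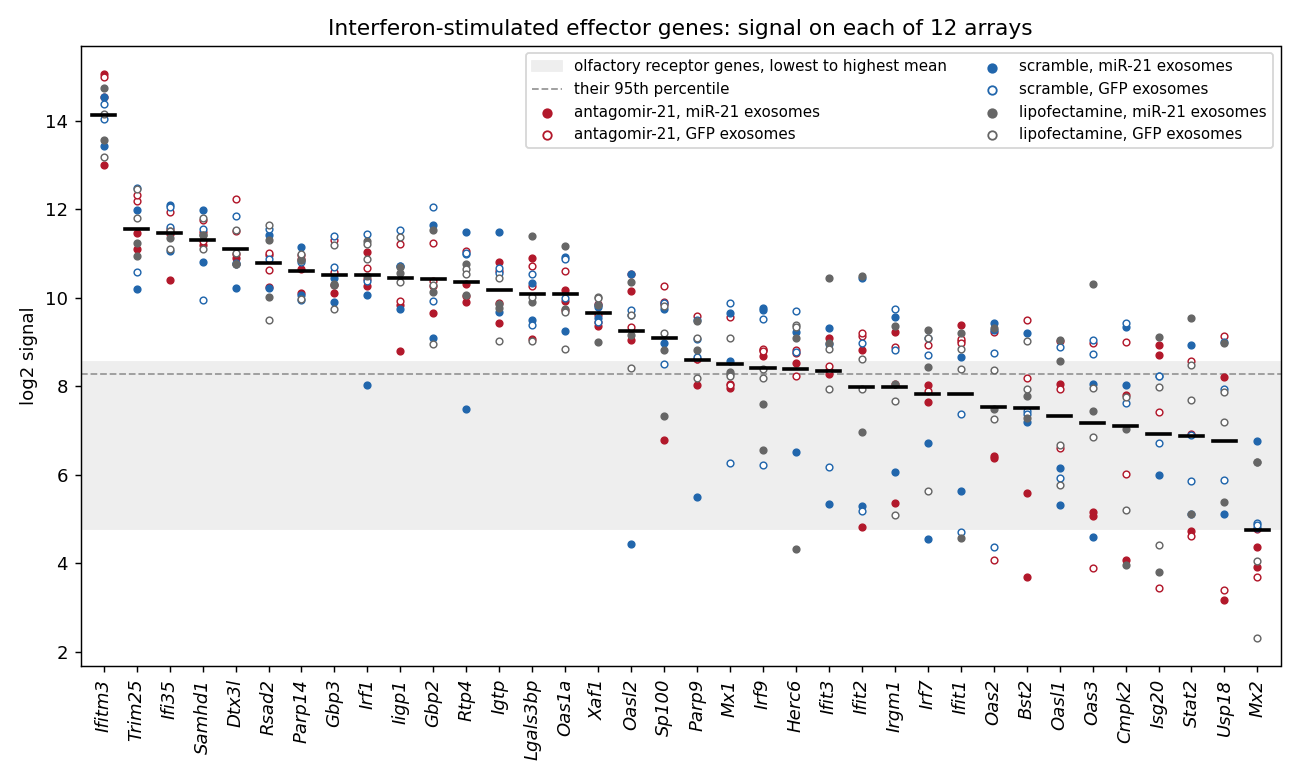
Log2 signal of each of the 36 measured genes (horizontal axis, by mean) on 12 arrays (points: red antagomir-21, blue scramble, grey lipofectamine, filled for miR-21 and open for GFP exosomes), with the mean as a bar and the range of olfactory receptor genes shaded. The 23 genes on the left have means above 8.27, and the points of the 13 genes on the right spread over several log2 units and mix the colours.

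Among the transcription factors, *Irf1* and *Irf9* were above the olfactory limit and *Irf7* and *Stat2* were not. *Irf1*, an early activator induced by interferon gamma, had signals of 10.25 and 11.03 with miR-21 and 10.42 and 10.66 with GFP exosomes after antagomir-21, 8.02 and 10.07 with miR-21 and 10.37 and 11.43 with GFP exosomes after scramble, and 11.29 and 10.50 with miR-21 and 10.87 and 11.21 with GFP exosomes after lipofectamine. The lowest value, 8.02, stood apart from 11 arrays at 10.07 to 11.43 and belonged to 1 scramble array with miR-21 exosomes whose partner read 10.07. *Irf9*, the DNA-binding part of the STAT complex, gave 8.68 and 8.82 with miR-21 and 8.85 and 8.80 with GFP exosomes after antagomir-21, 9.73 and 9.76 with miR-21 and 6.22 and 9.52 with GFP exosomes after scramble, and 6.55 and 7.59 with miR-21 and 8.18 and 8.38 with GFP exosomes after lipofectamine. Its lowest value, 6.22, and one of its highest, 9.52, came from the 2 arrays of scramble with GFP exosomes.

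*Irf7*, the factor that amplifies type I interferon production, gave 8.03 and 7.65 with miR-21 and 8.92 and 7.89 with GFP exosomes after antagomir-21, 6.71 and 4.54 with miR-21 and 9.08 and 8.70 with GFP exosomes after scramble, and 9.26 and 8.44 with miR-21 and 5.63 and 9.08 with GFP exosomes after lipofectamine. *Stat2*, the signal transducer of the type I response that binds IRF9, gave 4.73 and 6.92 with miR-21 and 8.58 and 4.61 with GFP exosomes after antagomir-21, 8.93 and 5.11 with miR-21 and 5.86 and 6.90 with GFP exosomes after scramble, and 9.54 and 5.12 with miR-21 and 7.68 and 8.49 with GFP exosomes after lipofectamine. Its replicates lay farthest apart in the lipofectamine group with miR-21 exosomes, and at 6.87 ± 1.77 (SD, n = 12) its mean was among those of the olfactory receptor genes.

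The effectors that bind RNA or make and clear nucleotides fell on both sides of the limit, 5 of 12 above it. Those above were *Samhd1* 11.31 ± 0.53, a dNTP hydrolase, *Rsad2* 10.78 ± 0.67, viperin, which makes a chain-terminating nucleotide, *Oas1a* 10.07 ± 0.70, an oligoadenylate synthetase that switches on RNase L, *Oasl2* 9.24 ± 1.65 and *Ifit3* 8.35 ± 1.37 (SD, n = 12 arrays each). Below it were *Ifit2* 7.99 ± 1.98, *Ifit1* 7.82 ± 1.81, a sensor of foreign RNA caps, *Oas2* 7.53 ± 1.90, *Oasl1* 7.33 ± 1.40, *Oas3* 7.17 ± 2.05, *Cmpk2* 7.11 ± 1.90, a mitochondrial nucleotide kinase, and *Isg20* 6.92 ± 2.04, an RNA exonuclease (SD, n = 12 each). The mean of *Ifit3* exceeded the limit by less than its SD.

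Of the genes of ISG15 conjugation and the ubiquitin and ADP-ribosylation system, 5 of 6 were above the limit. *Trim25* 11.56 ± 0.76, the ligase that ubiquitinates RIG-I, *Dtx3l* 11.11 ± 0.56 and its partner *Parp9* 8.60 ± 1.10, *Parp14* 10.60 ± 0.45 and *Herc6* 8.39 ± 1.52, the main mouse ISG15 ligase, were above it, and *Usp18* 6.77 ± 2.13, the protease that removes ISG15, was not (SD, n = 12 each). *Trim25* had signals of 11.46 and 11.11 with miR-21 and 12.19 and 12.33 with GFP exosomes after antagomir-21, 10.20 and 11.97 with miR-21 and 10.58 and 12.47 with GFP exosomes after scramble, and 11.25 and 10.95 with miR-21 and 11.79 and 12.45 with GFP exosomes after lipofectamine. *Usp18* gave 8.20 and 3.17 with miR-21 and 9.13 and 3.40 with GFP exosomes after antagomir-21, 8.99 and 5.11 with miR-21 and 5.88 and 7.94 with GFP exosomes after scramble, and 8.98 and 5.39 with miR-21 and 7.19 and 7.86 with GFP exosomes after lipofectamine, a spread of 5.96 that crossed every group, and replicates differed by more than 3 in 4 of 6 groups.

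Of 7 GTPases, 5 were above the limit: *Gbp3* 10.52 ± 0.54 and *Gbp2* 10.42 ± 1.0, guanylate-binding proteins, *Iigp1* 10.45 ± 0.78 and *Igtp* 10.18 ± 0.69, immunity-related GTPases that act on pathogen vacuoles, and *Mx1* 8.49 ± 0.98 (SD, n = 12 each). *Irgm1* 7.99 ± 1.64, a regulator of the other immunity-related GTPases, and *Mx2* 4.75 ± 1.25 were not (SD, n = 12 each). *Mx2* gave 4.36 and 3.92 with miR-21 and 4.78 and 3.69 with GFP exosomes after antagomir-21, 6.76 and 4.80 with miR-21 and 4.91 and 4.86 with GFP exosomes after scramble, and 6.28 and 6.28 with miR-21 and 2.31 and 4.05 with GFP exosomes after lipofectamine. Its mean lay below that of each olfactory receptor gene, the lowest of which was at 4.77.

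Of the membrane and secreted products, *Ifitm3* 14.13 ± 0.70, which blocks virus fusion in endosomes, *Rtp4* 10.36 ± 1.02 and *Lgals3bp* 10.09 ± 0.74 were above the limit and *Bst2* 7.52 ± 1.60, tetherin, which holds budding virions, was below it (SD, n = 12 each). *Ifitm3* gave 15.05 and 13.00 with miR-21 and 14.54 and 14.99 with GFP exosomes after antagomir-21, 13.43 and 14.54 with miR-21 and 14.03 and 14.37 with GFP exosomes after scramble, and 14.75 and 13.55 with miR-21 and 13.17 and 14.15 with GFP exosomes after lipofectamine. *Ifi35* 11.47 ± 0.47, *Xaf1* 9.64 ± 0.30 and *Sp100* 9.09 ± 1.09, a nuclear body protein, completed the set, all 3 above the limit (SD, n = 12 each). *Ifi35*, a cytosolic protein that binds the NMI adaptor, gave 11.43 and 10.39 with miR-21 and 11.54 and 11.94 with GFP exosomes after antagomir-21, 11.05 and 12.09 with miR-21 and 12.06 and 11.59 with GFP exosomes after scramble, and 11.35 and 11.51 with miR-21 and 11.11 and 11.52 with GFP exosomes after lipofectamine, with 10.39 as the lowest of 12.

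The genes upstream were read in part. Of the other genes of the pathway, 16 were analysed here and 12 were above the limit: both chains of the type I receptor, *Ifnar1* (9.16) and *Ifnar2* (10.86), both of the gamma receptor, *Ifngr1* (8.78) and *Ifngr2* (8.70), the kinases *Jak1* (9.84), *Jak2* (11.51) and *Tyk2* (9.37), the inhibitor *Socs3* (12.26), and the factors *Irf2* (12.76), *Irf3* (9.41), *Irf5* (10.34) and *Irf8* (9.34). The interferons *Ifnb1* (5.56), *Ifna4* (5.80) and *Ifng* (5.72) and the inhibitor *Socs1* (5.34) had means within the range of olfactory receptor genes. These ligands thus had signals like those of the background genes, while the receptors and kinases were above them. No other interferon gene was examined here.

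Replicates of a group were no closer than arrays of different groups. The mean absolute difference of a member was 1.40 between the 2 arrays of a group (6 pairs) and 1.32 between arrays of different groups (60 pairs), and it was smaller within than between groups in 14 of 36 members (38.9%), against 41.6% of all genes. For the 23 brighter members it was 1.0 within and 0.92 between groups. Single arrays moved many of these members at once. The brighter members averaged 9.18 on the scramble array with miR-21 exosomes of replicate 1, where 20 of 23 were below their own mean, and 10.73 on the antagomir-21 array with GFP exosomes of replicate 2, where 1 of 23 was. The first of these arrays also had the narrowest distribution over all genes (SD 2.02, others 2.14 to 2.57) and a mean of 9.65 over all 7665 genes above the olfactory limit, whose range over 12 arrays was 9.63 to 10.11. The part of the array distribution in the members' values was not tested. Its replicate 2 partner had 4 of 23 brighter members below their mean. The dimmer members averaged 8.37 on the lipofectamine array with miR-21 exosomes of replicate 1, against 6.58 to 7.91 on the other 11 arrays, and 6 of the 13 had their highest value there. The map of deviations shows these columns.

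**Figure D2:**
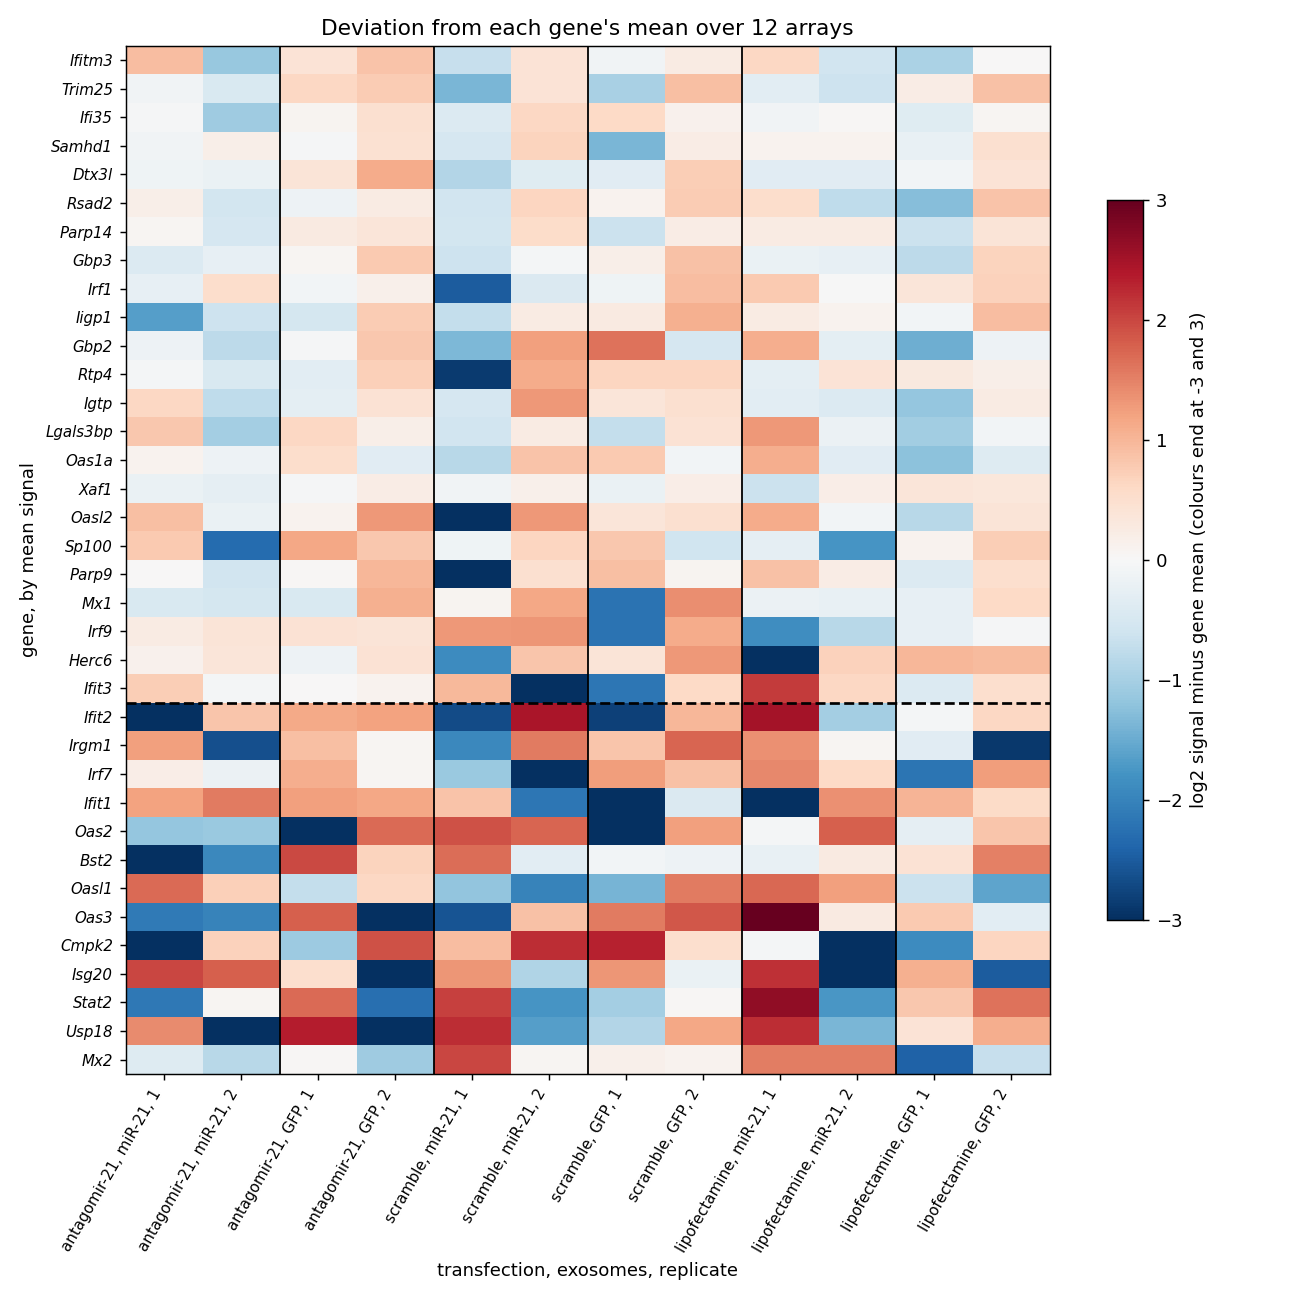
Log2 signal minus the gene's mean over 12 arrays, for 36 genes (rows, by mean signal, the dashed line at the olfactory limit) and 12 arrays (columns, 2 replicates per group between black lines). Blue runs through most upper rows of the scramble array with miR-21 exosomes of replicate 1 and red through those of the antagomir-21 array with GFP exosomes of replicate 2. In the lower rows 6 of 13 genes have their highest value on the lipofectamine array with miR-21 exosomes of replicate 1.

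The brighter members correlated with each other across arrays more closely, on average, than the genes above the same limit. These genes had a lower median signal (9.56) than the 23 members (10.36), so the sets share the limit and not the whole distribution. Over 12 arrays the mean Pearson correlation between pairs was 0.300 for the 23 brighter members, against 0.048 for all 7665 genes above the same limit, 0.026 for the 13 dimmer members and 0.134 for all 36 members, against 0.00076 for all genes. The split at this limit was set after the values were seen, and the coefficients are descriptions over 12 arrays that share scaling and processing. After group means were removed, the brighter members had 0.384, against 0.046 for the genes above the limit. It was 0.194 against 0.024 after quantile normalization, 0.203 against 0.012 with each array centred on its bright genes, 0.155 against 0.0089 with the mean of all probe sets of a gene, and 0.307 against 0.036 as Spearman coefficients. With median centring it was 0.439 against 0.177. Without the scramble array with miR-21 exosomes of replicate 1 it was 0.248 against 0.041, the lowest of the 12 values obtained by leaving out 1 array, which reached 0.348.

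**Figure D3:**
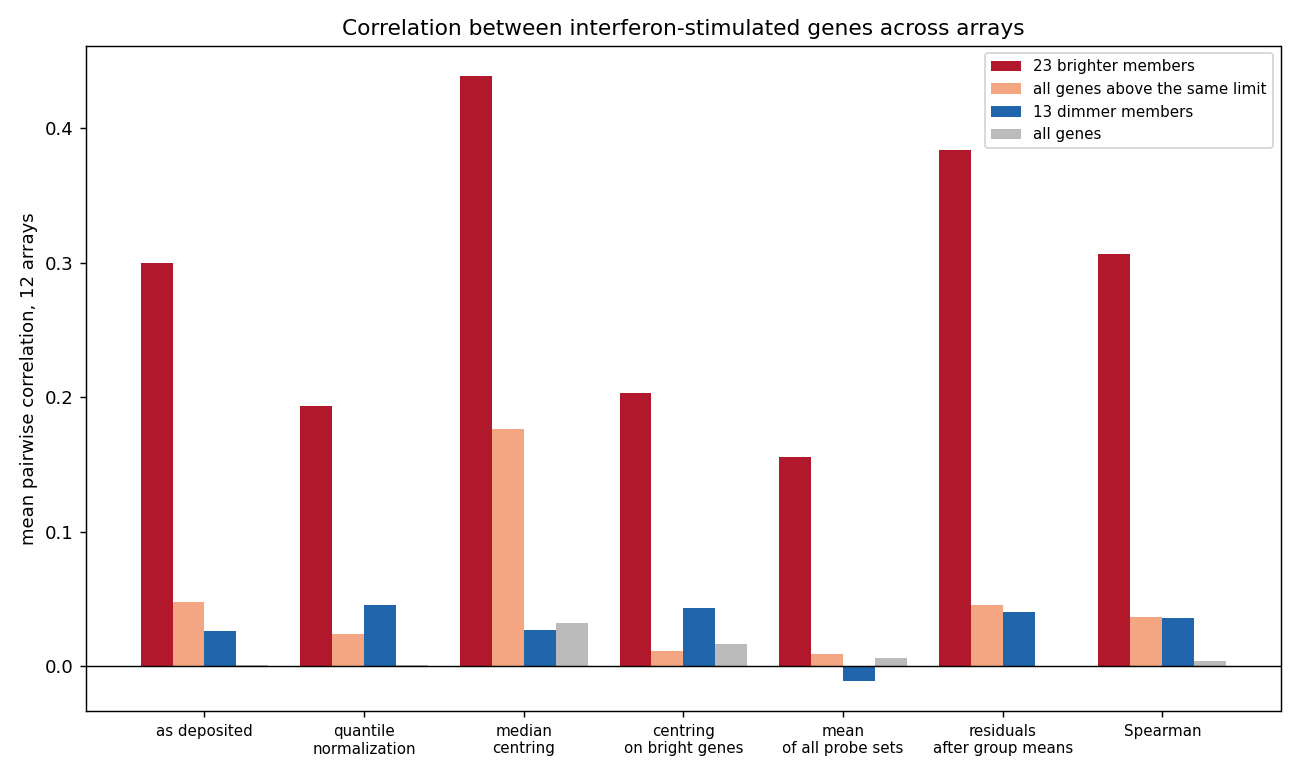
Mean correlation between pairs of genes over 12 arrays (vertical axis) for 23 brighter and 13 dimmer interferon-stimulated genes, all genes above the same limit and all genes, for the deposited values and 6 other settings. The 23 brighter members are between 0.155 and 0.439 and stand above all genes past the same limit in each setting, while the 13 dimmer members stay at 0.045 or lower.

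Of 630 pairs of members, 408 had a positive coefficient and 64 (10.2%) an unadjusted permutation p under 0.05 (100000 permutations), and 0 had an adjusted p under 0.05 over the 630 pairs, the lowest being 0.106. Coefficients were positive in 64.8% of member pairs, against 49.1% of pairs of all genes, and exceeded 0.576 in size in 10.5%, against 8.40%. Among pairs of brighter members, 207 of 253 (81.8%) were positive, against 52.8% of pairs of genes above the same limit, and 19.4% exceeded 0.576 in size, against 15.2%. *Ifitm3* and *Lgals3bp* had r = 0.86 (permutation p = 0.00049) and rho = 0.87 (permutation p = 0.00039), adjusted p = 0.106 and 0.123, and r = 0.75 without the 2 arrays farthest from the median of *Ifitm3*. *Trim25* and *Dtx3l* had r = 0.84 (permutation p = 0.00046) and rho = 0.78 (permutation p = 0.0036), adjusted p = 0.106 and 0.205, and r = 0.79 without the 2 farthest arrays. The second probe set of *Dtx3l*, with a mean of 8.43, had r = 0.00091 with the one used here. *Oasl2* and *Parp9* had the highest r, 0.95 (permutation p = 0.00056), with rho = 0.73 (permutation p = 0.0098), adjusted p = 0.106 and 0.289, and 0.64 without the 2 farthest arrays. Their high r came with low values of both on 1 array, scramble with miR-21 exosomes replicate 1, where *Oasl2* read 4.43 and *Parp9* 5.49. Against the mean of the other members, each scaled to unit variance, *Parp14* (r = 0.83), *Rsad2* (0.79), *Trim25* (0.76), *Gbp3* (0.75) and *Ifitm3* (0.73) followed most closely, and *Isg20* (−0.51) and *Ifit1* (−0.36) ran the other way. With the mean of all genes above the limit, *Trim25* had 0.84, *Gbp3* 0.54, *Parp14* 0.50, *Ifitm3* 0.25 and *Rsad2* 0.17. Of the other genes in the named pairs, *Dtx3l* had 0.80 with it, *Oasl2* 0.41, *Parp9* 0.36 and *Lgals3bp* 0.11. The part of this mean in the pairs was not tested. *Xaf1* and *Herc6* followed that mean (0.77 and 0.74) and not the other members (0.12 and 0.03).

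Of 18157 genes outside the list, those whose signal was most like the members' mean over 12 arrays were *Mmp13* (r = 0.94), *Pgk1* (0.93), *Hnrnph1* (0.92), *Ighv14-2* (0.91) and *Ss18* (0.90), a collagenase, a glycolytic enzyme, an RNA-binding protein, an immunoglobulin segment and a chromatin subunit. None of them belongs to the listed pathway genes, and with 12 arrays and so many genes high coefficients arise at the top of the ranking by its construction.

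Probe sets of 1 gene gave different pictures. For 14 members with 22 further probe sets, the correlation of each with the brightest probe set over 12 arrays had a median of 0.048, equal to that of all genes (0.048 over 16752 pairs). Where both probe sets were above the olfactory limit, the medians were 0.195 (9 pairs of 6 members) and 0.172 for all genes. *Herc6* (0.78) and *Trim25* (0.57) had the closest pairs. The 4 further probe sets of *Samhd1*, with means of 8.50 to 9.46, had coefficients of −0.24 to 0.21, and the second probe set of *Stat2* had −0.62. Which probe set stands for a gene thus bears on each of its values.

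The question of the design was whether neuronal miR-21 exosomes, and the block of miR-21 by antagomir-21, change gene expression of PMs. No member reached an adjusted p under 0.05 in limma in any of 12 comparisons, and neither did any of the 18193 genes. Counts at an unadjusted p under 0.05 follow, each beside the percentage of all genes at that threshold. In the test over 6 groups, 1 of 36 members passed (2.78%), against 5.96% of all genes: *Bst2* (adjusted p = 0.762). Next in rank by p were *Mx2* (adjusted p = 0.935), *Oasl1* (adjusted p = 0.964) and *Irf7* (adjusted p = 1.0), none past the unadjusted threshold.

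With miR-21 against GFP exosomes, averaged over the transfections, 2 of 36 members passed the unadjusted threshold (5.56%), against 5.45% of all genes. *Bst2* read 3.69 and 5.59 with miR-21 and 9.50 and 8.18 with GFP exosomes after antagomir-21, 9.20 and 7.19 with miR-21 and 7.45 and 7.37 with GFP exosomes after scramble, and 7.28 and 7.79 with miR-21 and 7.94 and 9.02 with GFP exosomes after lipofectamine. The 2 lowest arrays, 3.69 and 5.59, were those with antagomir-21 and miR-21 exosomes, and the other 10 lay between 7.19 and 9.50. It averaged 6.79 ± 1.91 with miR-21 exosomes and 8.24 ± 0.86 with GFP exosomes (SD, n = 6 each, overlapping), a log2 fold change of −1.45 ± 0.61 (SE, limma, adjusted p = 0.881). Without single arrays it ran between −1.79 and −1.12, and it passed the unadjusted threshold in 5 of 12 such fits, those without replicate 1 of lipofectamine with GFP or scramble with miR-21 exosomes, or replicate 2 of antagomir-21 with GFP, antagomir-21 with miR-21 or lipofectamine with miR-21 exosomes. It did not pass with each array centred on its bright genes (−1.25), or with the replicate number as a block or an additive model (−1.45 in both).

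*Mx2* averaged 5.40 ± 1.19 with miR-21 and 4.10 ± 1.01 with GFP exosomes (SD, n = 6 each, overlapping), a log2 fold change of 1.30 ± 0.57 (SE, limma, adjusted p = 0.906), at the lowest mean signal of the list. It passed in 3 of 12 fits without single arrays (range 0.97 to 1.63), those without replicate 1 of antagomir-21 with GFP, replicate 2 of lipofectamine with GFP or replicate 2 of scramble with miR-21 exosomes, and not with median centring, where it was 1.02. Next in each direction were *Oasl1*, an oligoadenylate synthetase-like inhibitor of IRF7 translation in mice, at 7.69 ± 1.58 with miR-21 and 6.97 ± 1.21 with GFP exosomes (SD, n = 6 each, limma, adjusted p = 0.970), and *Dtx3l*, at 10.73 ± 0.27 with miR-21 and 11.48 ± 0.53 with GFP exosomes (SD, n = 6 each, limma, adjusted p = 0.970). *Dtx3l* read 10.99 and 10.90 with miR-21 and 11.50 and 12.23 with GFP exosomes after antagomir-21, 10.22 and 10.75 with miR-21 and 10.78 and 11.86 with GFP exosomes after scramble, and 10.76 and 10.77 with miR-21 and 11.01 and 11.52 with GFP exosomes after lipofectamine, and groups overlapped.

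A total of 26 of 36 members had a lower mean with miR-21 exosomes, against 51% of all genes, with a median log2 difference of −0.28, against −0.02 for all genes. Genes above the olfactory limit shifted too: of these 7665 genes 67.9% were lower (median −0.21), as were 17 of the 23 brighter members (median −0.30). With each array centred on its bright genes, 19 of 36 members were lower (median −0.08), when the median of all genes was 0.18. Without the scramble array with miR-21 exosomes of replicate 1, 19 of 36 members were lower (median −0.08). Without the lipofectamine array with miR-21 exosomes of replicate 2, 19 of 36 were lower as well (median −0.02). The shares of all genes in the fits without single arrays are not given here. By role, 5 of 6 genes of the ISG15 and ubiquitin system, 6 of 7 GTPases and 6 of 12 RNA and nucleotide effectors were lower, and 5, 2 and 4 with each array centred on its bright genes.

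With antagomir-21 against scramble, averaged over the exosomes, 1 of 36 members passed (2.78%), against 5.16% of all genes. *Ifit1* read 9.02 and 9.38 with miR-21 and 9.06 and 8.97 with GFP exosomes after antagomir-21, 8.67 and 5.64 with miR-21 and 4.70 and 7.38 with GFP exosomes after scramble, and 4.58 and 9.19 with miR-21 and 8.84 and 8.39 with GFP exosomes after lipofectamine. The 4 antagomir-21 arrays lay between 8.97 and 9.38 and the 4 scramble arrays between 4.70 and 8.67, and 3 of the 4 lipofectamine arrays between 8.39 and 9.19. *Ifit1* is shown for the smallest p-value of 36 members. How many of all genes separate in this way was not counted, so the separation is not read as a result. The means were 9.11 ± 0.18 with antagomir-21 and 6.60 ± 1.77 with scramble (SD, n = 4 each), a log2 fold change of 2.51 ± 1.10 (SE, limma, adjusted p = 0.955). Leaving out single arrays gave 1.76 to 3.27, and it passed the unadjusted threshold in 4 of 12 such fits, those without either lipofectamine array with miR-21 exosomes, replicate 2 of scramble with GFP or replicate 1 of scramble with miR-21 exosomes. It did not pass after quantile normalization (2.56), with each array centred on its bright genes (2.38) or with the replicate number as a block (2.51).

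*Oasl1* read 9.02 and 8.06 with miR-21 and 6.61 and 7.95 with GFP exosomes after antagomir-21, 6.15 and 5.32 with miR-21 and 5.94 and 8.88 with GFP exosomes after scramble, and 9.05 and 8.56 with miR-21 and 6.68 and 5.76 with GFP exosomes after lipofectamine. It was next among members with a higher mean, at 7.91 ± 0.99 with antagomir-21 and 6.57 ± 1.58 with scramble (SD, n = 4 each, overlapping, limma, adjusted p = 0.992). *Mx2* averaged 4.18 ± 0.48 with antagomir-21 and 5.33 ± 0.95 with scramble (SD, n = 4 each, limma, adjusted p = 0.992), again at background signal. *Cmpk2* read 4.08 and 7.80 with miR-21 and 6.02 and 9.0 with GFP exosomes after antagomir-21, 8.03 and 9.33 with miR-21 and 9.43 and 7.61 with GFP exosomes after scramble, and 7.04 and 3.97 with miR-21 and 5.21 and 7.75 with GFP exosomes after lipofectamine, and averaged 6.73 ± 2.15 with antagomir-21 and 8.60 ± 0.92 with scramble (SD, n = 4 each, overlapping, limma, adjusted p = 0.992).

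Over the list, 16 members had a higher and 20 a lower mean with antagomir-21, with a median of −0.06, against −0.00396 for all genes, of which 50.2% were lower. The direction turned with median centring (20 higher and 16 lower, median 0.06, against 0.11 for all genes). It also turned without replicate 2 of scramble with GFP exosomes (20 higher, median 0.11) or with miR-21 exosomes (23 higher, median 0.16). Without replicate 2 of antagomir-21 with GFP exosomes 19 were higher (median 0.04), and without replicate 1 of that group 18 were higher (median 0.06). The medians of all genes in these fits are not given here. Of the genes above the olfactory limit 39.6% were lower (median 0.13), as were 11 of the 23 brighter members (median 0.03). All 7 GTPases were lower (median −0.41, −1.15 for *Mx2* to −0.04 for *Gbp3*), none of them with an unadjusted p under 0.05. Of these, *Mx2* and *Irgm1* were below the olfactory limit. With median centring or the mean of all probe sets, 6 of 7 were lower. Of 6 genes of the ISG15 and ubiquitin system, 5 of them above the olfactory limit, 5 were higher (median 0.31), and 4 with bright genes as the centre or the mean of all probe sets. Of 12 RNA and nucleotide effectors 6 were lower, as were 2 of 4 transcription factors, 1 of 4 membrane and secreted products and all 3 others. The roles were not tested as sets.

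With scramble and antagomir-21 against lipofectamine, averaged over the exosomes, 0 of 36 members passed, against 4.05% of all genes, and 18 were higher and 18 lower (median −0.04, all genes −0.03, of which 51.7% were lower). Among members with a higher mean the smallest p-values were those of *Irf9*, at 8.80 ± 1.13 (SD, n = 8) with oligonucleotide and 7.67 ± 0.82 (SD, n = 4) with lipofectamine (limma, adjusted p = 0.999), and of *Cmpk2*, at 7.66 ± 1.83 (SD, n = 8) and 5.99 ± 1.72 (SD, n = 4) in the same groups (limma, adjusted p = 0.999). Among those with a lower mean they were those of *Oas3* and *Ifit3*. *Oas3* read 5.06 and 5.16 with miR-21 and 8.97 and 3.90 with GFP exosomes after antagomir-21, 4.59 and 8.06 with miR-21 and 8.73 and 9.04 with GFP exosomes after scramble, and 10.30 and 7.44 with miR-21 and 7.96 and 6.86 with GFP exosomes after lipofectamine, with 6.69 ± 2.20 (SD, n = 8) with oligonucleotide and 8.14 ± 1.51 (SD, n = 4) with lipofectamine (limma, adjusted p = 0.999). *Ifit3* read 9.09 and 8.28 with miR-21 and 8.37 and 8.46 with GFP exosomes after antagomir-21, 9.32 and 5.33 with miR-21 and 6.18 and 8.95 with GFP exosomes after scramble, and 10.43 and 8.97 with miR-21 and 7.93 and 8.84 with GFP exosomes after lipofectamine, with 8.0 ± 1.45 (SD, n = 8) with oligonucleotide and 9.04 ± 1.04 (SD, n = 4) with lipofectamine (limma, adjusted p = 0.999). The groups overlapped in all 4.

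**Figure D4:**
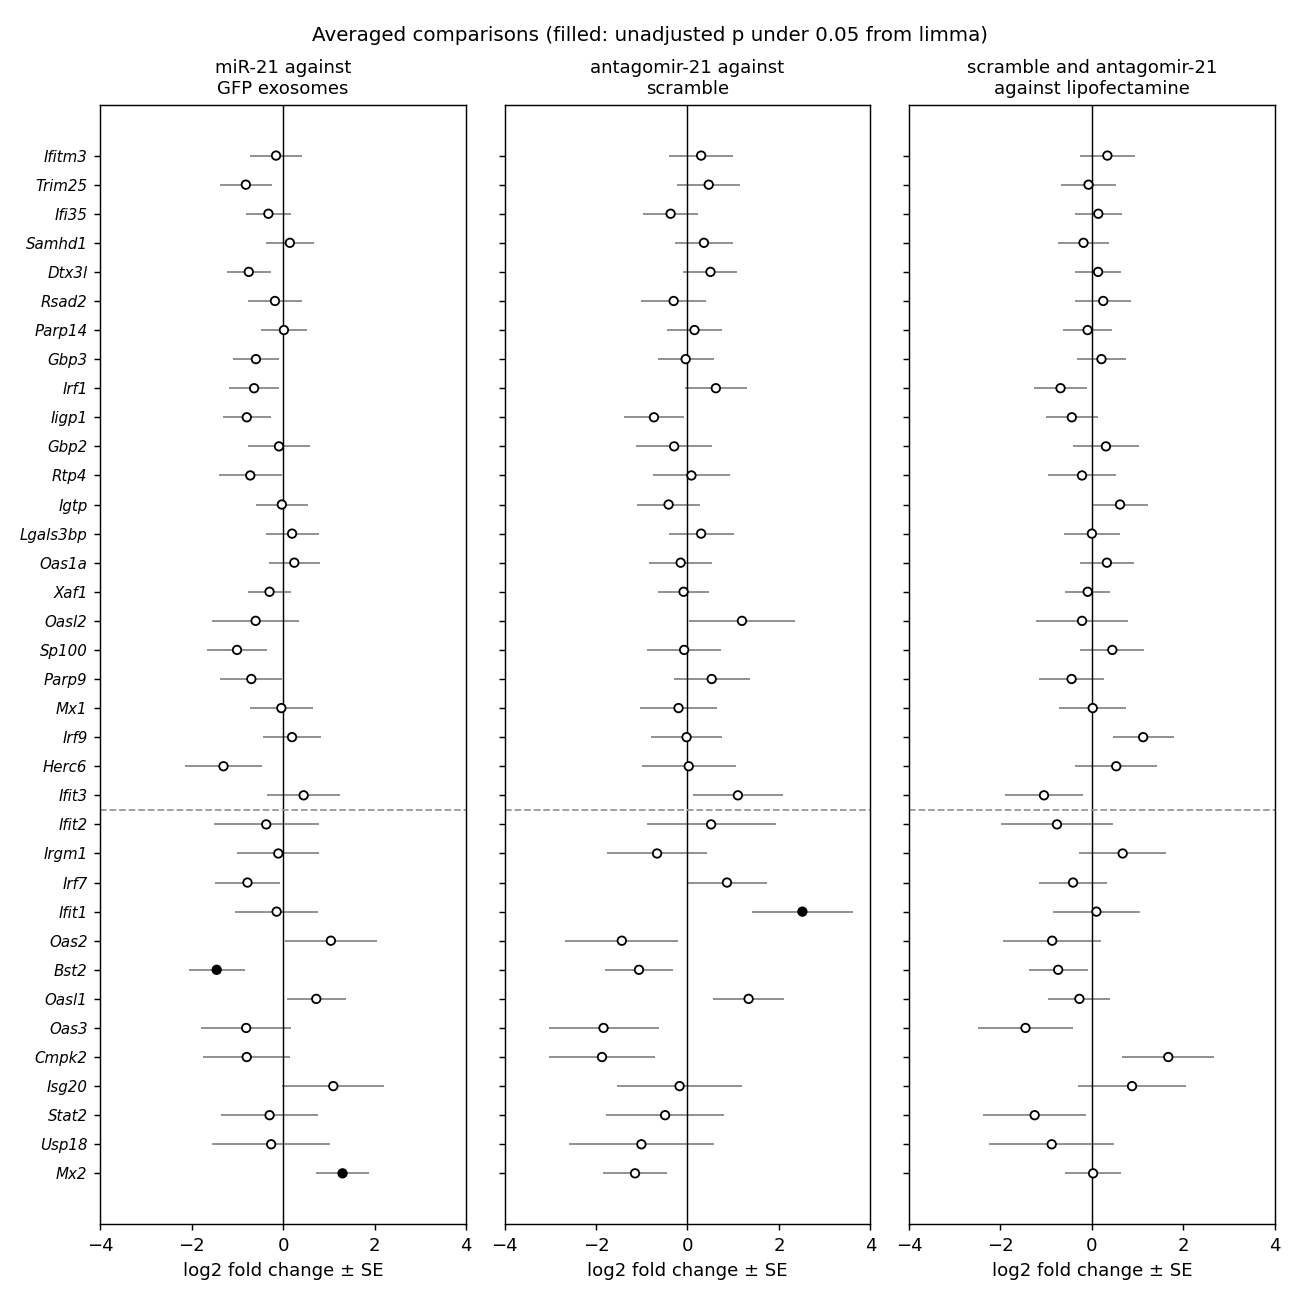
Log2 fold change with its SE (limma) of 36 genes in 3 averaged comparisons: miR-21 against GFP exosomes, antagomir-21 against scramble, and both oligonucleotides against lipofectamine. Filled points, with unadjusted p under 0.05, are *Bst2* and *Mx2* in the first, *Ifit1* in the second and none in the third panel, and in each panel the widest SE is that of *Usp18*, among the dimmer genes below the dashed line.

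In comparisons of 2 arrays against 2, *Bst2* had the smallest p-values of the list. With antagomir-21 it read 3.69 and 5.59 with miR-21 and 9.50 and 8.18 with GFP exosomes, a log2 fold change of −4.21 ± 1.06 (SE, limma, adjusted p = 0.516), and 1 of 36 members passed (2.78%), against 5.68% of all genes. With miR-21 exosomes it read 3.69 and 5.59 after antagomir-21 and 9.20 and 7.19 after scramble, −3.56 ± 1.06 (SE, limma, adjusted p = 0.657). The interaction, the exosome difference after antagomir-21 minus that after scramble, was −5.0 ± 1.49 (SE, limma, adjusted p = 0.774), with 1 of 36 members past the threshold, against 5.36% of all genes. These 3 values rest on the same 2 low arrays. Without single arrays the first ran between −5.16 and −3.26 and the interaction between −6.0 and −4.0, both past the unadjusted threshold in 12 of 12 fits. The second ran between −4.56 and −2.56 and passed in 10 of 12 fits, not without replicate 1 of scramble (−2.56) or of antagomir-21 (−2.61) with miR-21 exosomes. *Bst2* had 1 probe set of its symbol alone, and its mean, 7.52, was below the olfactory limit.

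**Figure D5:**
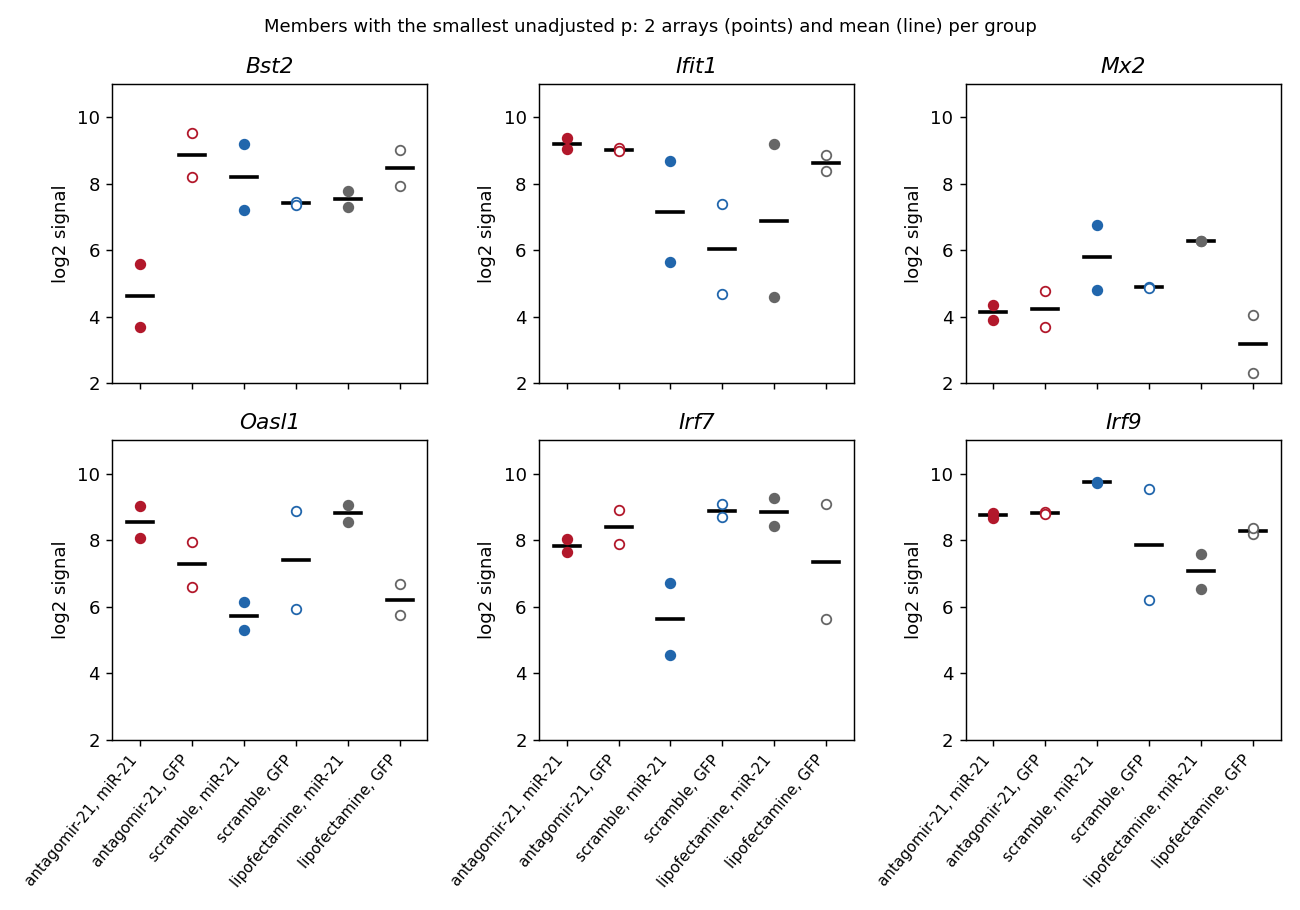
Log2 signal of *Bst2*, *Ifit1*, *Mx2*, *Oasl1*, *Irf7* and *Irf9* on 2 arrays per group (points) with the group mean (bar). *Bst2* is lowest in both arrays of antagomir-21 with miR-21 exosomes (5.59 and 3.69), *Ifit1* is between 8.97 and 9.38 in all 4 antagomir-21 arrays, and both arrays of scramble with miR-21 exosomes are low in *Irf7* (6.71 and 4.54) and *Oasl1* (6.15 and 5.32).

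After antagomir-21, 30 of 36 members had a lower mean with miR-21 than with GFP exosomes, against 52.7% of all genes, with a median of −0.55, against −0.08. Of the 23 brighter members 20 were lower (median −0.51), as were 65.6% of genes above the limit (median −0.29). The count was 25 of 36 with each array centred on its bright genes, when the median of all genes was 0.14. It was 23 of 36 (median −0.26) without the antagomir-21 array with miR-21 exosomes of replicate 2. The share of all genes in that fit is not given here. The mean of 3 B cell markers was 9.73 and 10.09 with miR-21 and 10.87 and 11.07 with GFP exosomes on these arrays, and that of 6 macrophage markers 13.93 and 12.46 with miR-21 and 13.72 and 13.90 with GFP exosomes. Their part in the difference was not tested. *Isg20* had the smallest p of the members with a higher mean, reading 8.93 and 8.71 with miR-21 and 7.42 and 3.43 with GFP exosomes (limma, adjusted p = 1.0).

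After scramble, 22 of 36 members were lower with miR-21 exosomes (median of the members −0.25), against 48.6% of all genes. Without the scramble array with miR-21 exosomes of replicate 1, 16 of 36 members were lower (median 0.24). The share of all genes in that fit is not given here. *Irf7* was the 1 member past the threshold (5.7% of all genes), reading 6.71 and 4.54 with miR-21 and 9.08 and 8.70 with GFP exosomes, a log2 fold change of −3.27 ± 1.22 (SE, limma, adjusted p = 0.797). It passed in 9 of 12 fits without single arrays, not without replicate 2 of scramble with miR-21 exosomes (−2.18) or either scramble array with GFP exosomes (−3.07 and −3.46). *Irf9* had the smallest p in the other direction (1.87, limma, adjusted p = 0.965). After lipofectamine, 2 members passed, against 3.84% of all genes: *Mx2*, reading 6.28 and 6.28 with miR-21 and 2.31 and 4.05 with GFP exosomes (3.10 ± 0.99, SE, limma, adjusted p = 0.999), and *Oasl1*, reading 9.05 and 8.56 with miR-21 and 6.68 and 5.76 with GFP exosomes (2.59 ± 1.11, SE, limma, adjusted p = 0.999). *Mx2* did not pass without replicate 1 of lipofectamine with GFP exosomes (2.23), and *Oasl1* without any 1 of the 4 arrays compared (2.13 to 3.05). *Herc6* had the smallest p among members with a lower mean, reading 4.32 and 9.09 with miR-21 and 9.38 and 9.35 with GFP exosomes (limma, adjusted p = 0.999).

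With miR-21 exosomes, antagomir-21 against scramble gave 2 members past the threshold, against 5.3% of all genes: *Bst2*, above, and *Oasl1*, reading 9.02 and 8.06 after antagomir-21 and 6.15 and 5.32 after scramble, 2.80 ± 1.11 (SE, limma, adjusted p = 0.896), which did not pass without replicate 1 of antagomir-21 (2.32) or replicate 2 of scramble (2.39) with miR-21 exosomes. With GFP exosomes 0 members passed, against 5.38% of all genes, and the smallest p-values were those of *Ifit1*, reading 9.06 and 8.97 after antagomir-21 and 4.70 and 7.38 after scramble (2.98 ± 1.56, SE, limma, adjusted p = 0.986), and *Oas3*, reading 8.97 and 3.90 after antagomir-21 and 8.73 and 9.04 after scramble (limma, adjusted p = 1.0).

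Scramble against lipofectamine gave 3 members with miR-21 exosomes (8.33%), against 5.68% of all genes. *Oasl1* read 6.15 and 5.32 after scramble and 9.05 and 8.56 after lipofectamine (−3.07 ± 1.11, SE, limma, adjusted p = 0.755), *Irf7* 6.71 and 4.54 after scramble and 9.26 and 8.44 after lipofectamine (−3.22 ± 1.22, SE, limma, adjusted p = 0.771), and *Irf9* 9.73 and 9.76 after scramble and 6.55 and 7.59 after lipofectamine (2.67 ± 1.08, SE, limma, adjusted p = 0.815). Each of the 3 lost the unadjusted threshold without replicate 1 of lipofectamine (−2.83, −2.81 and 2.15) and without replicate 2 of scramble with miR-21 exosomes (−2.65, −2.14 and 2.66), and *Irf9* also without replicate 1 of scramble (2.69). *Irf7*, which drives interferon production, was thus lower and *Irf9*, which carries the interferon signal to DNA, higher in the same 2 arrays, which also served as the low group of *Oasl1* against antagomir-21. With GFP exosomes 0 members passed, against 2.54% of all genes, and the smallest p-values were those of *Irgm1*, reading 8.82 and 9.74 after scramble and 7.66 and 5.09 after lipofectamine (limma, adjusted p = 1.0), and *Ifit1*, reading 4.70 and 7.38 after scramble and 8.84 and 8.39 after lipofectamine (limma, adjusted p = 1.0).

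The 16 other pathway genes had 1 gene past the unadjusted threshold over 6 groups (6.25%), against 5.96% of all genes, and 2 with averaged exosomes (12.5%), against 5.45%. They had 1 each for oligonucleotide against lipofectamine (all genes 4.05%), exosomes after antagomir-21 (5.68%) and scramble against lipofectamine with GFP (2.54%) and with miR-21 exosomes (5.68%), and 0 in the other 6 comparisons. These calls were of 3 genes. *Socs1*, an inhibitor of JAK kinases, had the call over 6 groups (limma, adjusted p = 0.674). With averaged exosomes it had 4.56 ± 0.72 with miR-21 and 6.12 ± 2.39 with GFP exosomes (SD, n = 6 each, limma, adjusted p = 0.846). It averaged 6.04 ± 1.81 (SD, n = 8) with oligonucleotide and 3.94 ± 1.16 (SD, n = 4) with lipofectamine (limma, adjusted p = 0.999). It also passed for exosomes after antagomir-21, at 4.06 ± 0.89 with miR-21 and 7.96 ± 0.015 with GFP exosomes (SD, n = 2 each, limma, adjusted p = 0.516), and with GFP exosomes at 7.17 ± 1.13 after scramble and 3.23 ± 1.31 after lipofectamine (SD, n = 2 each, limma, adjusted p = 1.0). *Ifnb1*, the gene of interferon beta, averaged 6.78 ± 1.89 with miR-21 and 4.34 ± 1.68 with GFP exosomes (SD, n = 6 each, overlapping, limma, adjusted p = 0.866), and *Ifna4* 4.10 ± 0.45 after scramble and 8.33 ± 1.24 after lipofectamine with miR-21 exosomes (SD, n = 2 each, limma, adjusted p = 0.781). All 3 had means within the range of olfactory receptor genes over 12 arrays.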

How the data were processed

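RNA of PMs was measured on 12 arrays in 6 groups of 2, taken from the labels. The authors deposited 1 table of log2 signals, with a value for each probe set and array. Their methods describe RMA with quantile normalization and median polish in affy, whereas the deposited arrays had medians of 7.92 to 8.58 and equal linear means after trimming 2% at each end (496 to 499), so the values are not quantile normalized. Which software produced the table is not given here. No transformation was added, and columns of per-sample values left unused numbered 0. How far a signal stood above scanner background is not known from the table.

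Of 45037 probe sets, the platform annotation gave 1 symbol for 34945 and several for 932, and did not list 9160. Symbols of 34741 were checked or updated through their gene ID. *Isg15* shares its probe set with another gene, and *Ifi44* and *Gbp5* had no probe set of their symbol alone.

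Tests were made in R 4.3.3 with limma 3.58.1 (lmFit on 6 group means, eBayes, 6 residual degrees of freedom, Benjamini-Hochberg over 18193 genes), and tested on simulated data first. Counts use an unadjusted p of 0.05, the threshold of the methods. Correlations and permutation tests (2-sided) used numpy 2.4.6 and scipy 1.17.1. The members, lists and tests were chosen with earlier results of these data known, and the split at the 95th percentile of olfactory receptor genes, the centring on genes above it and the counts of lower members were chosen after the values were seen. Every measured member is named once. Array values are given for the 3 brightest and 3 dimmest, the transcription factors, and the members with the smallest p each way. Alternatives were quantile normalization, median centring, centring on bright genes, the mean of all probe sets, genes above the median signal, array weights, the replicate number as a block, an additive model, the methods' unpaired test and leaving out each array. Whether replicate numbers pair the arrays is not known. The 15 correlations of deviations from group means ran from −0.192 to 0.167, without a reference value for arrays of a shared source, so they cannot decide it.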

Additional observations from a re-analysis of the deposited data

How the results depend on the processing

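Counts here are members of 36 past an unadjusted p of 0.05 in limma, in comparisons named in short. Under every alternative the number of members at an adjusted p under 0.05 stayed at 0. The median of the members for averaged exosomes, −0.28, was −0.56 with median centring and −0.08 with centring on bright genes. That for averaged antagomir-21, −0.06, was 0.06 and −0.19. The medians of all genes moved in the same directions. They were −0.02, −0.30 with median centring and 0.18 with centring on bright genes for exosomes. For antagomir-21 they were −0.00396, 0.11 and −0.13. Leaving out single arrays gave −0.48 to −0.02 for exosomes, −0.30 to 0.16 for antagomir-21 and −0.21 to 0.13 for oligonucleotides, so the sign of the last 2 is not settled. After quantile normalization or centring on bright genes, averaged exosomes gave 1 and averaged antagomir-21 0. Median centring gave 1 for averaged exosomes and 1 for exosomes after lipofectamine. The mean of all probe sets gave 2 for averaged antagomir-21. With genes above the median signal, which leaves 25 members, the counts were 0 over 6 groups, 0 for averaged exosomes, 0 for averaged antagomir-21, 0 for antagomir-21 with miR-21 exosomes, 0 for exosomes after lipofectamine, 0 after antagomir-21 and 0 for the interaction, since *Bst2*, *Mx2*, *Ifit1* and *Oasl1* were below that signal. Array weights gave 1 for averaged exosomes, 1 for antagomir-21 with miR-21 exosomes, 0 for exosomes after scramble and 1 for scramble with miR-21 exosomes. With the replicate number as a block, averaged exosomes and averaged antagomir-21 gave 0 each, exosomes after lipofectamine 1 and exosomes after antagomir-21 2. Whether arrays of 1 replicate number share a source is not known, and the block moved no other count by more than 1.5 times. The additive model gave 0 for averaged exosomes. The methods' unpaired test gave 1 for exosomes after lipofectamine, 0 after scramble and 1 for scramble with GFP exosomes. Apart from the filter, the cause of these moves was not tested.

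Leaving out 1 array at a time, with the array left alone in its group assumed to vary like the other groups, gave 0 to 3 over 6 groups, 0 to 4 for averaged exosomes, 0 to 2 for averaged antagomir-21, 0 to 1 for averaged oligonucleotides, 0 to 2 and 1 to 6 for antagomir-21 with GFP and with miR-21 exosomes, 0 to 3, 1 to 4 and 1 to 2 for exosomes after lipofectamine, scramble and antagomir-21, 0 to 1 and 1 to 4 for scramble with GFP and with miR-21 exosomes, and 1 to 4 for the interaction. The mean correlation of the 36 members, 0.134, was 0.112 after quantile normalization, 0.212 with median centring, 0.0969 with centring on bright genes, 0.0732 with the mean of probe sets, 0.297 with genes above the median signal and 0.154 after group means were removed, and 0.114 to 0.152 without single arrays. Members with a lower mean numbered 19 to 29 for averaged exosomes, 16 to 26 after scramble and 23 to 30 after antagomir-21 without single arrays.

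With 2 arrays a group, neither small nor large differences of members reached an adjusted p under 0.05. *Bst2* had a log2 fold change of −4.21 for exosomes after antagomir-21 (limma, adjusted p = 0.516). Its interaction was −5.0 (limma, adjusted p = 0.774). The dimmer members had a median SD of 1.81 over all arrays, which includes differences between groups. The absence of calls therefore does not show an absence of differences.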
